A study of Rattus norvegicus with 18 samples.

Results

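Of the 1044112 probe sets on a rat exon array, 3501 were annotated with several gene symbols at once, after leaving out 22 with a symbol of the Ugt1a cluster. A probe set here is a short group of probes that reads a stretch of an exon, and a shared probe set is one whose platform annotation lists at least 2 symbols. The choice used the annotation alone and no measured value. These rows are left aside when a value is made for each gene from its own probe sets, because a signal on them cannot be credited to a single gene. Each was therefore followed by itself. The remaining probe sets carried exactly 1 symbol (223110) or none (817479).

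RNA came from WB-F344, an established line of stem-like epithelial cells from rat liver, which had reached confluence in 60 mm dishes at passages 14 to 16. The cells received 100 nM PCB126, a dioxin-like polychlorinated biphenyl that activates the aryl hydrocarbon receptor, or 0.1% DMSO as the vehicle. Total RNA was taken after 6, 24 or 72 h, and 3 arrays per treatment and time, described as independent repeats, gave 6 groups and 18 arrays. All 18 came from this single line. Nothing in the labels ties the repeats to separate cultures, and p-values therefore cover only the spread among these arrays, which may be technical. Values are on the log2 scale after RMA, so a difference of 1 is a doubling, and changes are given as PCB126 minus DMSO. The brightness of a probe set depends on its own probes, so levels are compared between arrays and not between probe sets.

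The design asked what PCB126 changed at 6, 24 and 72 h. As a check of the treatment labels, the gene values of the receptor's targets Cyp1a1 and Aldh3a1 rose by 6.22 and 5.91 at 72 h. Of the line's markers, Vim had group means of 11.99 to 13.14, Gja1 of 9.19 to 10.12, Krt8 of 7.55 to 8.64, Krt19 of 5.28 to 6.75 and Krt18 of 3.99 to 4.79. At 72 h Krt8 rose by 1.08 and Vim by 1.15, while Krt19 fell by 1.37 (limma adjusted p = 0.00311, 7.96e-06 and 0.000217). Mesenchymal Col1a1 (10.27 to 11.01) and Des (8.21 to 9.26) were bright, and Thy1 and Pdgfra lay between 4.18 and 5.30. Of 4 hepatocyte markers Alb, Ttr and Tat stayed between 3.24 and 4.50, but Cyp2e1 had group means of 8.22 to 10.90 and fell by 1.23 at 24 h and 2.67 at 72 h (adjusted p = 0.000861 and 1.57e-07). The 5 leukocyte and endothelial markers lay between 2.90 and 5.20. The part of these markers in the results was not tested. PCB126 replicate 1 at 24 h and PCB126 replicates 1 and 2 at 72 h each stood apart on a principal component of all probe sets, and counts of calls and of separated probe sets are also given without such arrays.

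Shared annotation arises in several ways. Gene families made by duplication keep exons so alike that a probe reads several copies, and processed pseudogenes repeat the exons of their parent gene elsewhere in the genome. Neighbouring genes can share a transcript that reads through from one into the next, and an annotation can also hold several names of a single gene. Among the families that matter here, complement proteins and immunoglobulin receptors serve innate immunity, cingulin belongs to the tight junction of epithelia, and cytochromes P450 oxidise foreign compounds in liver.

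The 3501 shared probe sets named 1084 symbols in 698 different sets of symbols. Exactly 2 symbols stood on 2933 of them, 3 symbols on 381 and 4 or more on 187, with 17 symbols as the highest number. Of the 1084 symbols, 550 were current RefSeq symbols in the GRCr8 gene table, 516 were an older name of 1 current gene, 16 an older name of several genes and 2 had no match. For 176 probe sets all symbols led to 1 current gene, although C4b, on 9 of them, is at the same time an older name of C4a. Neighbours in the gene table were named by 1321 probe sets, genes on the same chromosome but not adjacent by 1259, genes on different chromosomes by 428 and overlapping genes by 177, and 140 held a symbol without a unique match.

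Promoters show how unlike these kinds of pair are. The stretches below, from RefSeq on GRCr8, run from 250 bases before to 50 bases after the annotated start of 6 genes whose shared probe sets carry the results at 72 h. Capitals mark GCGTG or its reverse complement CACGC, the core letters bound by the aryl hydrocarbon receptor with its partner ARNT. Matches are a description of letters and not of binding, and 29.7% of 33469 promoters of the same length held the motif on either strand.
C4a: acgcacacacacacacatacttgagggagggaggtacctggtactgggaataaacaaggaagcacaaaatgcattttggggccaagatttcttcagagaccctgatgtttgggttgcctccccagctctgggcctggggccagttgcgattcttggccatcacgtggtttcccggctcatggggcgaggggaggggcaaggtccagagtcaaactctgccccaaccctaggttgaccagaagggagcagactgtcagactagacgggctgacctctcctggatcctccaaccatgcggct
C4b: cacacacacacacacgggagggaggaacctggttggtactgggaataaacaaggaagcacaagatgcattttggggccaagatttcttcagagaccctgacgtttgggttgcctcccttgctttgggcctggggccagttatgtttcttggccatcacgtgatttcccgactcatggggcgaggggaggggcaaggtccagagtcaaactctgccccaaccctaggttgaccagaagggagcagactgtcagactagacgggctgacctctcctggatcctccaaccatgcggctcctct
Cgn: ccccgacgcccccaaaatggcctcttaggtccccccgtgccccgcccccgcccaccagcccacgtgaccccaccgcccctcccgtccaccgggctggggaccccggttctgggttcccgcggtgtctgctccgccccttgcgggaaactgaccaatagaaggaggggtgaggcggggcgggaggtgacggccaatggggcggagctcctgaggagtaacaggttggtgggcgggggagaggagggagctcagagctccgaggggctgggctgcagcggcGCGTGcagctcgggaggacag
Tuft1: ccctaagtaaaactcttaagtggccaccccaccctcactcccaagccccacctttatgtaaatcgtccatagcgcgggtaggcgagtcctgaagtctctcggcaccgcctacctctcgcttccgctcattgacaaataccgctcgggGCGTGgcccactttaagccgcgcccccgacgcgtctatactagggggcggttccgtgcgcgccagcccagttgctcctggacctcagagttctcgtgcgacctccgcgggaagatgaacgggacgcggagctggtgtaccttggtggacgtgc
Afap1l1: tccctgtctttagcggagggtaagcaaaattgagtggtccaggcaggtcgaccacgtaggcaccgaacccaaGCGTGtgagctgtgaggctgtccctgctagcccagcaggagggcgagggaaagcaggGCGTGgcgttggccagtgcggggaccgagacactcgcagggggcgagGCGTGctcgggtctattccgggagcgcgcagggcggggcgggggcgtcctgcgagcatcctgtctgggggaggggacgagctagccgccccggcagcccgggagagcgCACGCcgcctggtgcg
Grpel2: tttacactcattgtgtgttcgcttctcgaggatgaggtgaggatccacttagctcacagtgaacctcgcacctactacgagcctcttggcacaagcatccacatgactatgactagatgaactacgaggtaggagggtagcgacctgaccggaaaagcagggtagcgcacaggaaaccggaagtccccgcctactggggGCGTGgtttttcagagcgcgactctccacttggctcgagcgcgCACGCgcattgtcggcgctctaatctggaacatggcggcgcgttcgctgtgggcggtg
The C4a and C4b promoters, at chr20:4010107-4010406 and chr20:4201729-4202028 on the plus strand, were identical at 280 aligned positions with 11 mismatches and 18 gaps, 96.2% of the aligned bases, and held no match. Symbols of both complement genes stand on the C4 probe sets, since C4-2 is an older name of C4b and C4b is also an older name of C4a. By contrast the neighbours Cgn and Tuft1 were identical at 180 aligned positions with 71 mismatches and 98 gaps, 71.7% of the aligned bases. Their promoters lie at chr2:185023586-185023885 and chr2:184995145-184995444 on the minus strand, with 1 match each. Afap1l1 and Grpel2 were identical at 181 aligned positions with 61 mismatches and 116 gaps, 74.8% of the aligned bases. They lie at chr18:57514431-57514730 and chr18:57450359-57450658 on the minus strand, with 4 and 2 matches. Gaps are left out of these percentages, so the many gaps of the last 2 pairs do not lower them.

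Changes with PCB126 were tested for every probe set of the array with limma, p-values were adjusted over all 1044112 (Benjamini-Hochberg), and a probe set was called at an adjusted p under 0.05. At 6 h limma called 0 shared probe sets, while 148 (4.23%) had an unadjusted p under 0.05, against 0.00508% called (0.0046% higher and 0.000479% lower) and 4.73% at an unadjusted p under 0.05 over the whole array. At 24 h 6 fell and none rose, 0.171% of the shared probe sets against 0.09% of all probe sets called (0.0344% higher and 0.0556% lower). At 72 h 6 rose and 12 fell, 0.514% against 0.298% of all (0.109% higher and 0.189% lower). At an unadjusted p under 0.05 stood 227 (6.48%) at 24 h and 293 (8.37%) at 72 h, against 6.73% and 7.7% of all. The shares called are close to or above those of the array as a whole and below those of probe sets with a single symbol, of which 0.338% were called at 24 h and 1.09% at 72 h. Their mean signals also lay lower, with a median of 4.81 against 6.72 for single-symbol probe sets and 3.61 for those without a symbol, and the part of signal in the shares was not tested. The calls fell on 7 pairs of symbols out of the 698 sets.

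These counts, and with them the shares, moved with single arrays and with the fit. Leaving out 1 array at a time gave 4 to 19 calls at 72 h in place of 18, reaching 7, 9 and 4 on omission of DMSO replicates 1, 2 and 3 at 72 h, and 8, 5 and 12 on omission of PCB126 replicates 1, 2 and 3. At 24 h the 6 calls went to 2 without DMSO replicate 1, DMSO replicate 3 or PCB126 replicate 1, to 3 without PCB126 replicate 3 and to 4 without PCB126 replicate 2. Without PCB126 replicate 1 at both 24 and 72 h, 2 calls were left at 24 h and 7 at 72 h, of which 1 was higher. With limma fitted on only the 6 arrays of each comparison, 0 were called at 24 h and 0 at 72 h. With an intensity trend in the spread the counts were 22 and 65, of which 28 were higher at 72 h. Adjusted over only the probe sets with a gene symbol, they were 10 and 36, of which 12 were higher at 72 h.

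**Figure D1:**
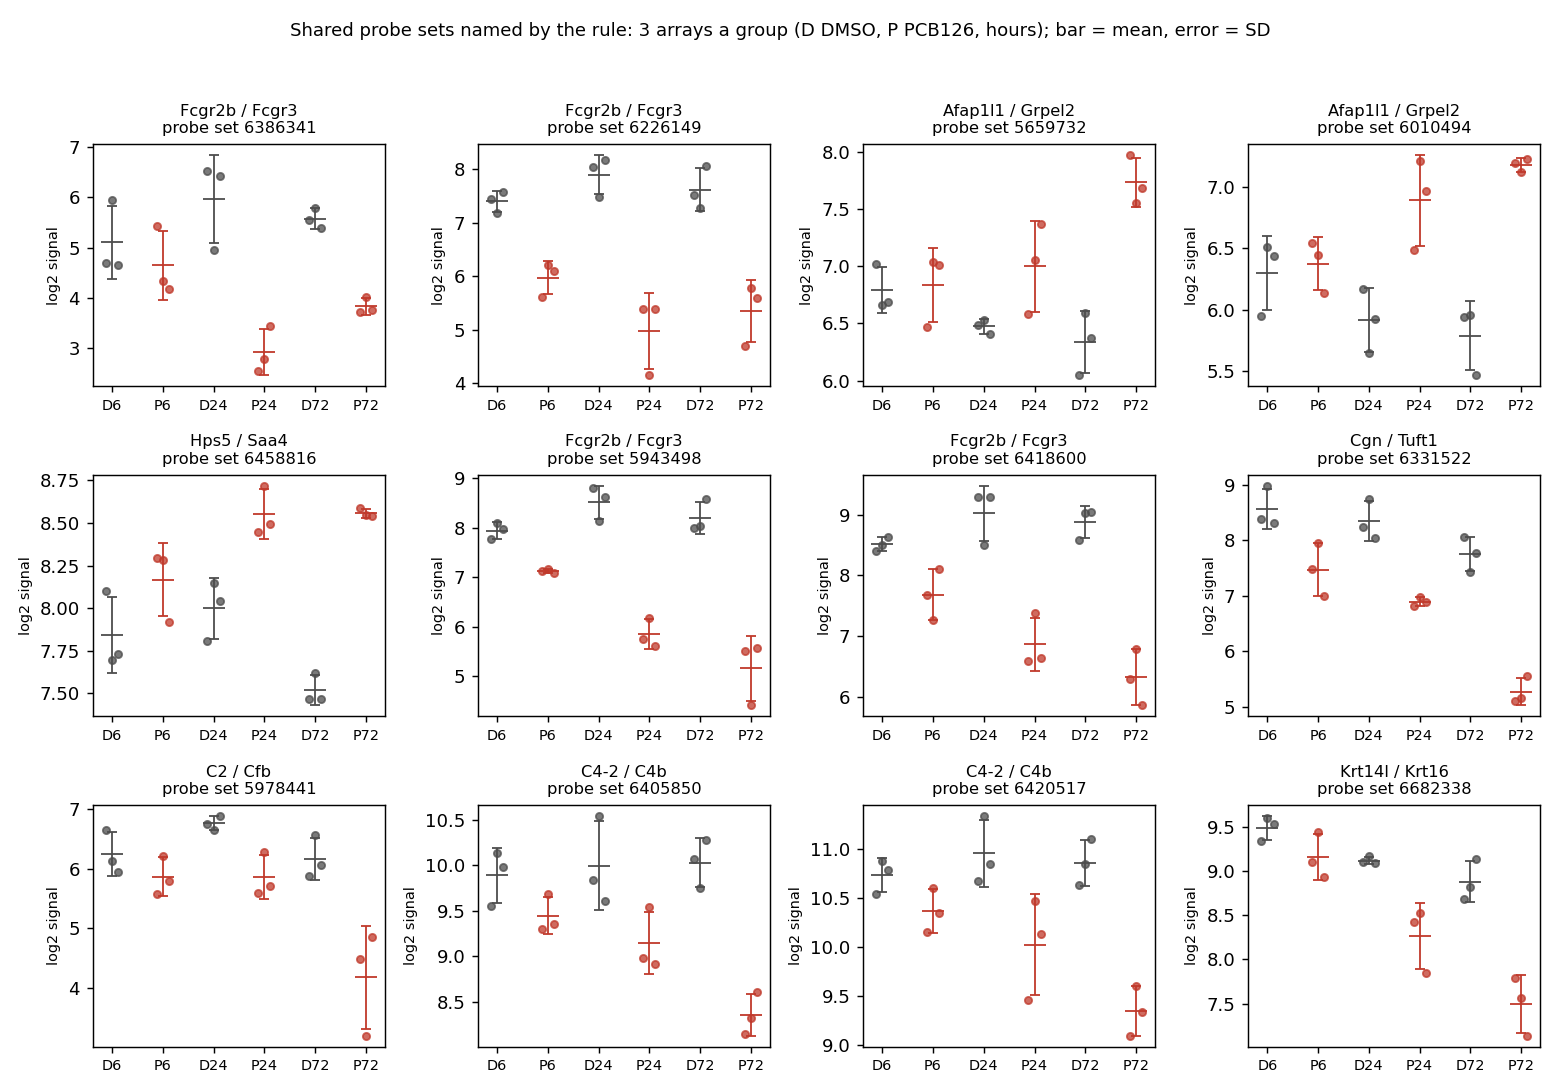
Log2 signal on each of the 18 arrays (vertical axis) for 12 shared probe sets called with PCB126, by group (D DMSO, P PCB126, with the hours). They are the largest called rises and falls per time, with at most 2 per set of symbols. Other called rows of the same sets are left out, some with larger changes than rows shown. Points are arrays, bars are means and error bars SD of 3 arrays. In every panel the 3 PCB126 arrays at 72 h lie wholly below or wholly above the 3 DMSO arrays.

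Probe sets shared by the immunoglobulin receptors Fcgr2b and Fcgr3 fell most. Fcgr2b is the inhibitory receptor for the constant region of IgG, and Fcgr3, here an older name of Fcgr2a, belongs to the activating receptors of the same cluster. In DMSO, probe set 5943498 read 7.76, 8.09 and 7.98 at 6 h, 8.79, 8.14 and 8.61 at 24 h, and 7.99, 8.03 and 8.57 at 72 h. With PCB126 it read 7.11, 7.16 and 7.08 at 6 h, 5.76, 6.18 and 5.61 at 24 h, and 5.50, 4.40 and 5.56 at 72 h. All 3 PCB126 arrays were below all 3 DMSO arrays at every time. The fall was 6.35-fold at 24 h (log2 change -2.67, SE 0.30, limma adjusted p = 0.00132) and 8.25-fold at 72 h (-3.04, SE 0.30, adjusted p = 0.000143), and the change of -0.82 at 6 h was not called. The call at 72 h held without any 1 of the 6 arrays compared (limma adjusted p = 0.000446 to 0.00154).

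A further 3 probe sets of this pair had large called changes. Probe set 6418600 read 8.58, 9.03 and 9.04 in DMSO and 6.30, 6.79 and 5.87 with PCB126 at 72 h, a 5.90-fold fall (-2.56, SE 0.32, limma adjusted p = 0.000914). At 24 h the same probe set had fallen 4.45-fold (adjusted p = 0.0115), and its groups did not overlap at any time. Probe set 6226149 read 8.03, 7.48 and 8.17 in DMSO and 5.39, 4.15 and 5.38 with PCB126 at 24 h, a 7.54-fold fall (-2.92, SE 0.37, limma adjusted p = 0.00328), and it was 4.77-fold lower at 72 h (adjusted p = 0.00966). Already at 6 h its PCB126 arrays, at 5.62, 6.20 and 6.10, lay below the DMSO arrays, at 7.44, 7.17 and 7.57, though that change of -1.42 was not called (adjusted p = 0.877). Probe set 6386341 read 6.51, 4.96 and 6.42 in DMSO and 2.55, 2.80 and 3.44 with PCB126 at 24 h, an 8.19-fold fall (-3.03, SE 0.44, adjusted p = 0.011), and at 72 h its change was -1.74 (adjusted p = 0.162). Its call at 24 h was lost without DMSO replicate 1 or 3 or PCB126 replicate 1 or 2 (adjusted p up to 0.0853), while 6418600 at 72 h and 6226149 at 24 h kept theirs without any 1 of the 6 arrays compared. These are the largest falls among the shared probe sets called at 24 h.

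Not every Fcgr2b and Fcgr3 probe set behaved alike. Of 12, limma called 6 lower at 24 h and 4 lower at 72 h, and changes at 72 h ran from -3.04 to 0.42. The 3 PCB126 arrays lay below the 3 DMSO arrays on 8 of the 12 at 24 h and on 7 at 72 h, and above them on 1 at 72 h. Over the array 6.27% of probe sets were wholly lower and 6.1% wholly higher at 24 h, and 5.79% and 5.82% at 72 h. Such counts for the pairs below have the same shares of the array beside them. The genes' own probe sets gave these values. Read from its 16 own probe sets, Fcgr3 fell by 1.10 at 24 h (SE 0.21, limma adjusted p = 0.0053) and by 0.89 at 72 h (adjusted p = 0.0158). Fcgr2b, from 10 own probe sets, changed by -0.45 and -0.16 (adjusted p = 0.418 and 0.82). Its group means were 2.34 to 3.16, under 4.03, the median of all probe sets, so a fall could hardly show. Leukocytes carry these receptors. Of the 3 leukocyte markers examined 0 were called at 72 h, with changes of 0.20 for Ptprc, 0.28 for Cd68 and 0.13 for Lyz2 (limma adjusted p = 0.508, 0.577 and 0.84), and their group means over all times were 2.90 to 3.10, 4.21 to 4.92 and 3.23 to 3.72. In bulk RNA, fewer cells of a type and less RNA per cell cannot be told apart.

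Complement genes gave the largest group of called falls at 72 h. C4 is cleaved at the start of the classical and lectin pathways, C2 forms the protease of those pathways with it, and Cfb is the corresponding protease of the alternative pathway. On the C4-2 and C4b pair, probe set 6405850 read 10.07, 9.74 and 10.27 in DMSO and 8.14, 8.32 and 8.60 with PCB126 at 72 h. No PCB126 array reached a DMSO array, and the fall was 3.19-fold (-1.67, SE 0.28, limma adjusted p = 0.0125). Probe set 6420517 read 10.63, 10.85 and 11.10 in DMSO and 9.10, 9.61 and 9.34 with PCB126, a 2.85-fold fall (-1.51, SE 0.28, adjusted p = 0.0248), again without overlap. At 24 h, 9.46, 10.48 and 10.14 with PCB126 stood against 10.68, 11.34 and 10.85 in DMSO (-0.93, adjusted p = 0.413). Leaving out 1 array of the 6 ended the call of 6405850 for DMSO replicates 1 and 3 and PCB126 replicates 1 and 2, and that of 6420517 for all but PCB126 replicate 2 (limma adjusted p up to 0.0802 and 0.133).

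Across the 9 C4 probe sets, 5 fell at 72 h by the test and 8 had PCB126 arrays wholly below DMSO arrays at 72 h, as at 24 h. Their median change went from -0.365 at 6 h to -0.849 at 24 h and -1.38 at 72 h. The exception was the dimmest of the 9, with a change of -0.20 at 72 h. The genes' own probe sets gave nearly the same values: C4-2 fell by 1.35 (37 probe sets, limma adjusted p = 7.05e-05) and C4b by 1.35 (36 probe sets, adjusted p = 1.35e-05) at 72 h. Because C4-2 and C4b name a single current gene, and C4b also names C4a, these 3 readings cannot be assigned to separate genes.

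For the neighbours C2 and Cfb, probe set 5978441 read 5.87, 6.56 and 6.05 in DMSO and 4.49, 3.21 and 4.85 with PCB126 at 72 h. PCB126 replicate 2 was the lowest, and no array of the 2 groups overlapped. This was a 3.94-fold fall (-1.98, SE 0.36, limma adjusted p = 0.0257), and the call was lost without any of the 3 DMSO arrays or PCB126 replicate 2 (adjusted p up to 0.137). The other 9 probe sets of the pair were not called, and their median with it was -0.855 at 24 h and -1.13 at 72 h, where changes ran from -1.98 to -0.17. From its 20 own probe sets Cfb fell by 0.97 at 72 h (SE 0.21, limma adjusted p = 0.00883), whereas C2 changed by -0.35 (4 probe sets, adjusted p = 0.423).

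Among epithelial genes, a probe set shared by Cgn and Tuft1 fell. Cingulin, the product of Cgn, is a scaffold on the cytoplasmic face of tight junctions, and tuftelin, from Tuft1, is known from tooth enamel. Probe set 6331522 read 8.39, 8.99 and 8.31 in DMSO against 7.48, 7.95 and 6.99 with PCB126 at 6 h, then 8.25, 8.74 and 8.04 against 6.81, 6.97 and 6.89 at 24 h. At 72 h it read 8.06, 7.43 and 7.77 against 5.10, 5.16 and 5.56. The groups were apart at all 3 times, but only the 5.57-fold fall at 72 h was called (-2.48, SE 0.29, limma adjusted p = 0.000543), with -1.45 at 24 h (adjusted p = 0.0885) and -1.09 at 6 h (adjusted p = 0.903). It held without any 1 of the 6 arrays compared (limma adjusted p = 0.00196 to 0.00538). The other probe set of the pair changed by -0.45 at 72 h (adjusted p = 0.739), and its groups overlapped. From 27 own probe sets Cgn fell by 0.78 at 6 h, 1.10 at 24 h and 1.33 at 72 h (limma adjusted p = 0.0112, 0.000114 and 7.43e-06). Tuft1, from 18, fell by 0.51 at 24 h (adjusted p = 0.0343) and changed by -0.09 at 72 h (adjusted p = 0.808).

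The only called keratin row carried Krt14l and Krt16, which are names of a single current gene, Krt16, a keratin of stressed and wounded epidermis. Probe set 6682338 read 9.10, 9.17 and 9.10 in DMSO and 8.43, 8.53 and 7.84 with PCB126 at 24 h (-0.85, adjusted p = 0.384). At 72 h it read 8.69, 8.83 and 9.13 against 7.79, 7.56 and 7.13, a 2.62-fold fall (-1.39, SE 0.25, limma adjusted p = 0.019). Groups were apart at both times. The call was lost without replicate 2 or 3 of either group (adjusted p up to 0.113). A dimmer probe set of the same names changed by 0.23 at 72 h (adjusted p = 0.945), and Krt16's own probe sets by -0.28 (adjusted p = 0.69).

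All 6 called rises belonged to pairs of unlike genes. Afap1l1 encodes a protein bound to actin filaments, and Grpel2 a nucleotide exchange factor of the mitochondrial heat shock protein; they are neighbours, and Afap1l1 is also listed as an older name of Grpel2. Probe set 5659732 read 6.05, 6.59 and 6.37 in DMSO and 7.97, 7.55 and 7.68 with PCB126 at 72 h, a 2.63-fold rise (1.40, SE 0.25, limma adjusted p = 0.0219). Probe set 6010494 read 5.94, 5.96 and 5.46 against 7.19, 7.12 and 7.23, also 2.63-fold higher (1.39, SE 0.25, adjusted p = 0.0222). Its 24 h arrays were already apart, at 6.17, 5.64 and 5.92 in DMSO and 6.49, 7.22 and 6.97 with PCB126, though that change of 0.98 was not called (adjusted p = 0.277). At 72 h the call of 5659732 was lost without any 1 of the 6 arrays but DMSO replicate 2, and that of 6010494 without any 1 of the 6 (limma adjusted p up to 0.123 and 0.130).

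Of the 18 probe sets of Afap1l1 and Grpel2, 5 rose at 72 h by the test and all 18 changes were above 0, from 0.35 to 2.56. The highest was not called, with 1.59, 2.49 and 4.13 in DMSO against 5.84, 4.23 and 5.83 with PCB126 (SE 0.62, limma adjusted p = 0.131). PCB126 arrays lay wholly above DMSO arrays on 15 of the 18 at 72 h and on 12 at 24 h. Afap1l1 rose by 1.28 at 24 h and 1.33 at 72 h on its 2 own probe sets (limma adjusted p = 0.0154 and 0.00805), and Grpel2 changed by 0.09 at 72 h on 11 (adjusted p = 0.88). At 72 h the median of the 18 shared probe sets, 1.18, lay nearer to the value of Afap1l1. At 24 h their median was 0.521, between 1.28 for Afap1l1 and -0.17 for Grpel2 and not nearer to Afap1l1.

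Hps5 encodes a subunit of a complex that forms lysosome-related organelles, and Saa4 an apolipoprotein of the serum amyloid A group. Probe set 6458816 of this pair read 7.47, 7.62 and 7.46 in DMSO and 8.59, 8.55 and 8.54 with PCB126 at 72 h, a 2.05-fold rise (1.04, SE 0.20, limma adjusted p = 0.0391). The groups did not overlap, but omission of each of the 6 arrays in turn ended the call (adjusted p = 0.0995 to 0.151). At 24 h the groups were apart as well, at 7.80, 8.15 and 8.04 against 8.45, 8.72 and 8.49 (0.55, adjusted p = 0.589). The 22 probe sets of the pair had a median change of 0.724 at 72 h, from -0.61 to 1.35. Of these 12 were wholly higher and 0 wholly lower, against 5.82% and 5.79% of the array. Hps5 rose by 0.81 at 72 h on its 18 own probe sets (limma adjusted p = 0.019), and Saa4 had no probe set of its own.

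**Figure D2:**
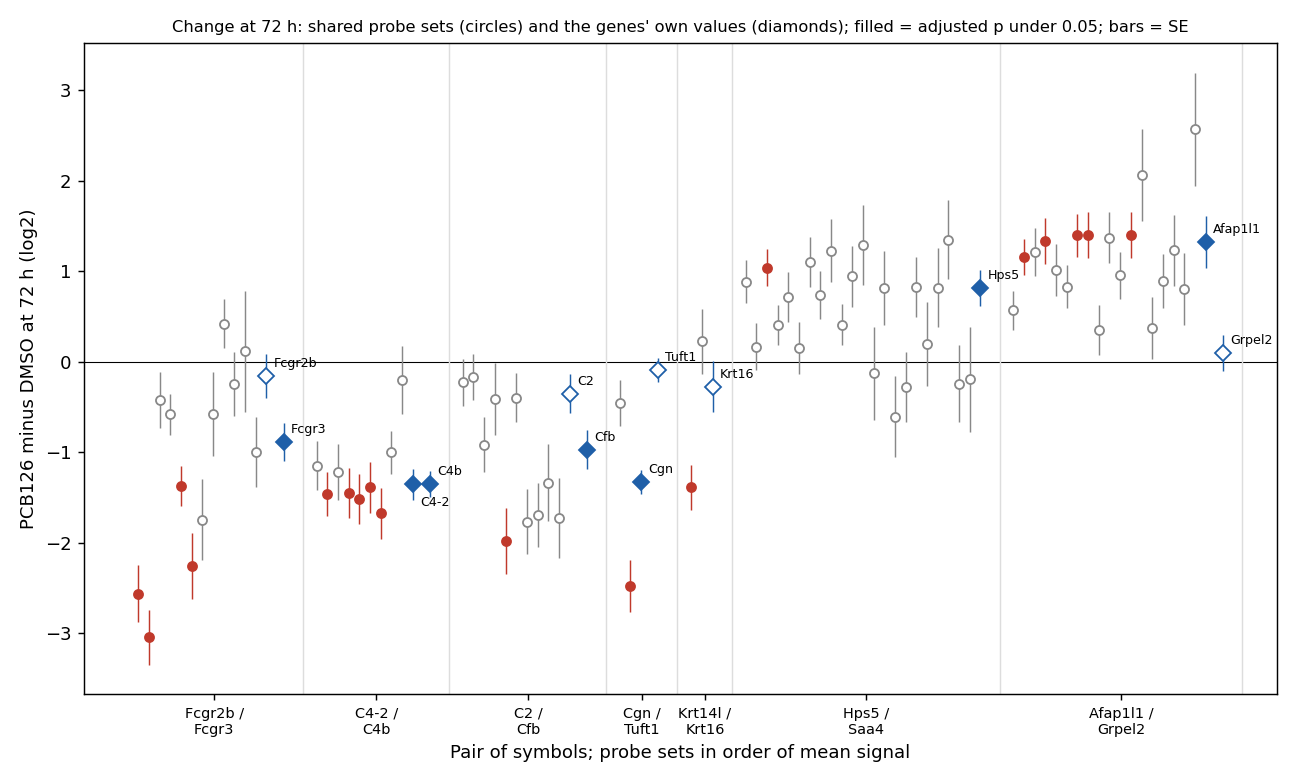
PCB126 minus DMSO at 72 h (log2, vertical axis) for each probe set of the 7 pairs with a call (circles, in order of mean signal) and for the genes read from their own probe sets (diamonds); bars are SE and filled symbols have a limma adjusted p under 0.05. The 9 C4 probe sets have a median of -1.38 beside gene values that fell by 1.35, those of Afap1l1 and Grpel2 run from 0.35 to 2.56, and those of Fcgr2b and Fcgr3 run from -3.04 to 0.42.

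Each shared probe set was compared with every gene it names that had its own value, which was subtracted on each array. This gave 6339 pairs of a probe set and a gene, with p-values adjusted over all of them in limma. Pairs reuse probe sets and gene values, so they are not independent. Probe sets with a single symbol were not compared with their gene in this way. The test therefore cannot show whether shared probe sets differ from a gene more than its own probe sets do. At 6 h 0 differed by the adjusted p and 302 by an unadjusted p under 0.05. The adjusted test passed 3 at 24 h (0.0473%) and 23 at 72 h (0.363%). The 3 at 24 h were Fcgr2b and Fcgr3 probe sets set against Fcgr2b, with differences of -2.22 for 5943498, -2.59 for 6386341 and -1.71 for 6418600 (adjusted p = 0.047). Group means of Fcgr2b were only 2.34 to 3.16. Without a detection call, such dim values limit what differences from Fcgr2b can show at 24 and 72 h. At 72 h probe set 5943498 fell further than both genes, with a difference of -2.89 from Fcgr2b (adjusted p = 0.00168) and -2.16 from Fcgr3 (adjusted p = 0.003), and 6418600 did so with -2.41 and -1.68 (adjusted p = 0.00168 and 0.0474). The Cgn and Tuft1 probe set 6331522 likewise differed by -1.15 from Cgn (adjusted p = 0.0474) and -2.39 from Tuft1 (adjusted p = 0.00168). No probe set of C4, of C2 and Cfb, of Hps5 and Saa4 or of Afap1l1 and Grpel2 passed this test. The nearness of the last pair to Afap1l1 at 72 h therefore rests on the values alone. At 72 h the count ranged from 9 to 22 when single arrays were left out. Without any 1 of the 3 DMSO or 3 PCB126 arrays at 72 h it was 9 to 11, and 13 to 15 without DMSO replicate 1 or 2 at 6 h, PCB126 replicate 2 at 6 h, DMSO replicate 1 or 2 at 24 h, or PCB126 replicate 1 at 24 h. The count of 3 at 24 h went to 2 without PCB126 replicate 2 at 72 h, to 1 without PCB126 replicate 3 at 72 h and to 0 without any other array.

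Another 12 of the 23 differences at 72 h came from a pair without a called probe set, Podn and Scp2. Podocan, from Podn, is a proteoglycan of the extracellular matrix, and Scp2 is a sterol carrier protein of peroxisomes. Podn's 9 own probe sets gave 9.78, 9.64 and 9.94 in DMSO and 7.84, 7.67 and 7.97 with PCB126 at 72 h, a fall of 1.96 (SE 0.16, limma adjusted p = 5.79e-07) with no overlap. The brightest of the 19 shared probe sets, 5650334, read 11.93, 11.37 and 11.67 in DMSO and 11.56, 11.74 and 11.48 with PCB126, where the groups overlapped (-0.06, adjusted p = 0.98). Changes of all 19 ran from -0.94 to 0.02, with a median of -0.418 at 72 h and -0.613 at 24 h, and PCB126 arrays lay wholly below DMSO arrays on 7 at 72 h. The 12 that differed from Podn did so by 1.04 to 1.98 (limma adjusted p = 0.0037 to 0.0474). Scp2 had no gene value.

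The other 5 differences at 72 h were 1 probe set each. Probe set 6578629 of Adam12, a metalloprotease, and Zbtb22, a zinc finger protein, changed by 0.55 while Adam12 fell by 1.31 (difference 1.86, limma adjusted p = 0.0277). Probe set 5825113 of Cyp2b1 and Cyp2b2, the P450s known for induction by phenobarbital in rat liver, changed by -1.56 while Cyp2b2 changed by 0.50 (difference -2.06, adjusted p = 0.0474). For Cyp2d1 and Cyp2d5, relatives of the enzyme that oxidises debrisoquine, probe set 5626079 changed by 1.15 while Cyp2d5 changed by -0.73 (difference 1.87, adjusted p = 0.0398). Probe set 6738542, shared by the fatty acid transporter gene Cd36 and RGD1565355, an older name of Cd36l1, changed by -1.85 while RGD1565355 changed by 0.98 (difference -2.83, adjusted p = 0.0427). Group means of RGD1565355 were only 1.76 to 2.74, and its own change was not called (limma adjusted p = 0.101). As for Fcgr2b, such dim values limit what this difference can show. An olfactory receptor row naming Olr1436, Olr1440, Olr1442, Olr1443 and Olr1448 differed from Olr1443 by 1.39 (adjusted p = 0.0474).

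Of the 1084 symbols, 900 had a value from their own probe sets. Called among these were 2 genes at 6 h, 16 at 24 h and 26 at 72 h, against 0.494%, 4.84% and 7.44% of all 16988 genes. In total 30 were called at any time, of which 8 stood in a set with a called shared probe set. Without PCB126 replicate 1 at 24 and 72 h the total was 33, and without PCB126 replicate 2 at 72 h it was 36. Nptxr, the neuronal pentraxin receptor, rose by 1.05 at 72 h (limma adjusted p = 0.000227), while the 5 probe sets it shares with the Polycomb gene Cbx6 changed by 0.14 to 0.59 and none was called. Fam134b, a receptor for turnover of the endoplasmic reticulum, fell by 0.72 (3 own probe sets, adjusted p = 0.00725), and its partner Znf622 changed by 0.00 (adjusted p = 0.994). Their 8 shared probe sets changed by -1.18 to -0.51. The brightest, 6546926, read 10.05, 10.24 and 10.12 in DMSO and 9.66, 9.18 and 9.30 with PCB126 at 72 h, without overlap but not called (-0.76, adjusted p = 0.291).

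Many shared probe sets separated the groups without reaching the threshold. All 3 PCB126 arrays lay above all 3 DMSO arrays on 270 shared probe sets at 72 h (7.71%) and below them on 212 (6.06%), against 5.82% and 5.79% of the whole array. At 24 h 237 (6.77%) were wholly higher and 234 (6.68%) wholly lower, against 6.1% and 6.27%, and at 6 h 232 (6.63%) and 205 (5.86%), against 5.45% and 5.86%. Leaving out 1 PCB126 array raises such counts by construction, for the array too. Without PCB126 replicate 1 at 24 h 415 (11.9%) were wholly higher and 402 (11.5%) wholly lower, against 11.1% and 11% of the array. At 72 h, without PCB126 replicate 1, 442 (12.6%) and 476 (13.6%) were, against 11.4% and 11.1%, and without PCB126 replicate 2 473 (13.5%) and 340 (9.71%), against 11.1% and 11.1%. The median change of all 3501 was 0.0149 at 6 h, -0.00306 at 24 h and 0.016 at 72 h. A description of the sets in which such rows gather follows, chosen by these values and so given without a test of the set.

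Of 236 sets of symbols with at least 5 probe sets, 16 had at least 50% of them separated in a single direction at 72 h, 9 higher and 7 lower. Without PCB126 replicate 1 at 72 h there were 12 and 14 such sets, and without PCB126 replicate 2, 16 and 9. Among the lower ones were the C4, C2 and Cfb, and Fcgr pairs. Cabc1 and Psen2 followed, with 13 of 19 wholly lower at 72 h and 16 at 24 h. Cabc1 is an older name of Coq8a, which acts in coenzyme Q synthesis, and Psen2 encodes a presenilin of gamma-secretase. Their brightest probe set, 6156369, read 11.53, 11.21 and 11.27 in DMSO and 10.56, 10.60 and 10.54 with PCB126 at 72 h (-0.77, limma adjusted p = 0.123). All 19 changes at 72 h were below 0, from -1.02 to -0.03, and Psen2 itself changed by -0.21 on its 17 own probe sets (adjusted p = 0.462).

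RGD1560115 and RGD1564927, both older names of the transcriptional repressor Tgif2, had 5 of 7 wholly lower, and the brightest read 9.16, 9.35 and 9.07 in DMSO and 8.59, 8.45 and 8.34 with PCB126 at 72 h (-0.73, limma adjusted p = 0.195). H2-T23, an older name of the nonclassical class I gene RT1-S3, shared 8 probe sets with H2-T24, of which 4 were wholly lower and all had changes below 0. The brightest read 9.35, 9.38 and 9.63 against 8.92, 8.82 and 8.56 (-0.68, adjusted p = 0.259). H2-T23 fell by 0.81 on its 2 own probe sets (limma adjusted p = 0.00778), whereas H2-T24 changed by 0.19 on 10 (adjusted p = 0.559). Gtf3c2, a subunit of a polymerase III factor, and Mpv17l, on different chromosomes, had 3 of 5 wholly lower, with changes of -0.39 to -0.20.

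Among the sets that were higher was a pair with Tapbp. Tapbp encodes tapasin, which loads peptides on class I molecules, and all 7 of the probe sets it shares with Wdr46 were wholly higher at 72 h, with changes of 0.52 to 0.85. The brightest read 10.47, 10.72 and 10.67 in DMSO and 11.26, 11.17 and 11.23 with PCB126 (0.60, limma adjusted p = 0.306). Tapbp rose by 0.81 on its 1 own probe set (adjusted p = 0.00258), and Wdr46 changed by 0.08 (adjusted p = 0.849). Psme1, a subunit of the proteasome activator, and its pseudogene Psme1-ps1 had 4 of 5 wholly higher. Its brightest row read 12.43, 12.06 and 12.40 against 12.73, 12.54 and 12.57 (0.32, adjusted p = 0.749). The class I genes RT1-N2 and RT1-N3 had 3 of 6 wholly higher, with a median of 0.41.

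Gapdh, the glycolytic enzyme, and Gapdh-ps2 had 8 of 9 wholly higher at 72 h and 7 at 24 h by small steps of 0.19 to 0.45. The brightest row read 13.03, 13.12 and 13.03 in DMSO and 13.25, 13.30 and 13.26 with PCB126 (0.21, limma adjusted p = 0.862), while Gapdh rose by 0.87 on its 17 own probe sets (adjusted p = 0.000951). The chaperonin gene Tcp1 and RGD1562716, an older name of its pseudogene, had 7 of 8 wholly higher. Their brightest row read 10.62, 10.55 and 10.39 against 11.10, 10.97 and 10.94 (0.49, adjusted p = 0.473). Aldh16a1 and Rcn3, a calcium-binding protein of the secretory pathway, had 7 of 9 wholly higher with a median of 0.328. Ocln, the tight junction protein occludin, and Tpmt, which methylates thiopurines, lie on different chromosomes and shared 22 probe sets. All 22 changes were above 0 at 72 h, from 0.25 to 2.25, and 13 were wholly higher. Tpmt itself changed by 0.36 on 2 own probe sets (limma adjusted p = 0.269), whose group means were dim, at 2.95 to 3.43.

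**Figure D3:**
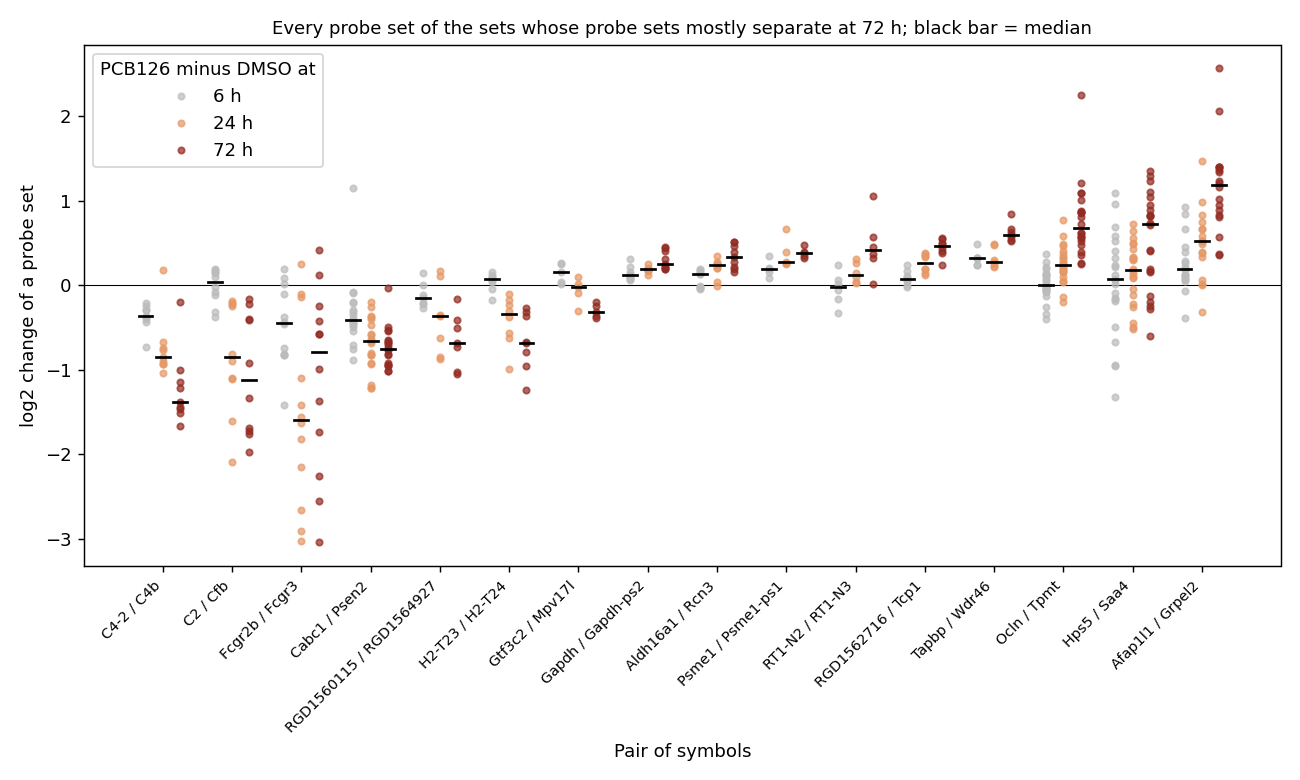
PCB126 minus DMSO (log2, vertical axis) at 6, 24 and 72 h for every probe set of the 16 sets of symbols in which at least 50% of probe sets separated at 72 h; points are probe sets and black bars medians. The C4 pair goes from a median of -0.365 at 6 h to -1.38 at 72 h, and Afap1l1 and Grpel2 from 0.186 to 1.18.

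The families taken from symbol prefixes, which hold neither the complement nor the Fcgr rows, gave 1 call in all, the keratin row above. They cover 1426 shared probe sets that have every symbol in 1 family. Wholly higher and lower rows were 6.1% and 6.27% of the array at 24 h and 5.82% and 5.79% at 72 h. These are the shares to set beside the counts that follow. The 11 histone rows, whose products package DNA, had the highest family median at 72 h, 0.513. Of these, 9 were wholly higher at 24 h and 8 at 72 h (72.7%), and none wholly lower. Without PCB126 replicate 1 or 2 at 72 h 8 were wholly higher at 72 h. Without PCB126 replicate 1 at 24 h 10 were at 24 h, where the share of the array was 11.1%. The 2 rows of Hist1h2ai and Hist1h2an read 10.79, 10.85 and 10.64 in DMSO and 11.73, 11.50 and 11.10 with PCB126 at 72 h on probe set 6108369 (0.68, limma adjusted p = 0.299). Probe set 6123630 read 9.97, 10.26 and 9.88 against 11.60, 11.14 and 10.75 (1.12, adjusted p = 0.0718). Both were without overlap, with PCB126 replicate 1 highest. On the row of Hist1h4b, Hist1h4m and Hist2h4, values of 11.65, 11.40 and 11.30 in DMSO and 12.23, 11.86 and 11.80 with PCB126 gave 0.51 (adjusted p = 0.537). At 6 h the family's median was -0.00355. Hist1h2bc, which shares 4 of these rows with Hist1h2bh, rose by 1.58 at 72 h on its 1 own probe set (limma adjusted p = 0.00805), and Hist1h2bh changed by 0.74 on 2 (adjusted p = 0.339).

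RT1 genes of the rat major histocompatibility complex, which present peptides to T cells, shared 50 probe sets in 12 sets. At 72 h 12 (24%) were wholly higher and 0 wholly lower, with a median change of 0.253 against 0.0386 at 24 h, and none was called. The brightest, 5997498 of RT1-CE10 and RT1-CE3, read 11.85, 11.73 and 11.67 in DMSO and 12.18, 11.95 and 11.88 with PCB126 at 72 h (0.25, limma adjusted p = 0.837). These counts hold only symbols that start with RT1-. They leave out the 8 rows of H2-T23, an older name of RT1-S3, and H2-T24. Of those 8 rows, 4 were wholly lower and 0 wholly higher at 72 h, with a median of -0.68. The 17 proteasome rows had a median of 0.32, and the 4 wholly higher were those of Psme1. None of the 12 rows of Psma3 and Psma3l, a core subunit, was apart.

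Cytochromes P450 shared 89 probe sets in 10 sets and had a median change of -0.0722 at 72 h, with 9 wholly higher (10.1%), 3 wholly lower (3.37%) and no call, against 5.82% and 5.79% of the array. No shared row named a member of the Cyp1 family, the classical targets of the aryl hydrocarbon receptor. The rows of Cyp4a8 and Cyp4x1 ran from -0.67 to 2.15 at 72 h, and the brightest of the family, 5816997, read 7.12, 7.29 and 6.93 in DMSO against 6.80, 7.04 and 7.22 with PCB126. Glutathione transferases Gsta2 and Gsta3, with Yc2 as an older name of Gsta3, conjugate glutathione to foreign compounds and shared 27 probe sets. Of these 3 were wholly higher and 9 wholly lower at 72 h. The brightest read 11.36, 10.77 and 11.18 in DMSO and 10.89, 10.31 and 10.23 with PCB126 (-0.62, limma adjusted p = 0.533), where the groups overlapped.

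Sensory receptor genes made up the largest families. Olfactory receptors had 596 shared probe sets in 259 sets, and 116 of them had a mean above 4.03, the median of all probe sets. Vomeronasal receptors had 300 in 72 sets, with 33 above it. No detection call was used here, so dim signals cannot be told from background. Of the olfactory rows 41 (6.88%) were wholly higher and 20 (3.36%) wholly lower at 72 h, and of the vomeronasal rows 9 (3%) and 20 (6.67%), against 5.82% and 5.79% of the array. The olfactory row nearest to a call at 6 h, 6177390 of Olr1688, Olr1689, Olr1690 and Olr1691, read 1.81, 1.73 and 1.19 in DMSO and 3.06, 3.23 and 3.61 with PCB126 (1.73, limma adjusted p = 0.0768). It was called with an intensity trend (adjusted p = 0.0397) and when adjusted over probe sets with a symbol (0.0204). At 72 h the same row overlapped, at 1.32, 1.18 and 1.59 against 1.28, 1.32 and 0.82. Alpha protocadherins, adhesion proteins made from a cluster of variable exons, had 10 of 33 rows (30.3%) wholly lower at 24 h and 2 at 72 h. Tubulins had 8 of 29 (27.6%) wholly higher at 24 h and 1 at 72 h. At 24 h the array had 6.27% wholly lower and 6.1% wholly higher. Without PCB126 replicate 1 at 24 h the protocadherin count was 12 (36.4%), against 11% of the array. The tubulin count was then 10 (34.5%), against 11.1%. Natural killer receptors had 50 rows, of which 5 were wholly higher and 1 wholly lower at 72 h.

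**Figure D4:**
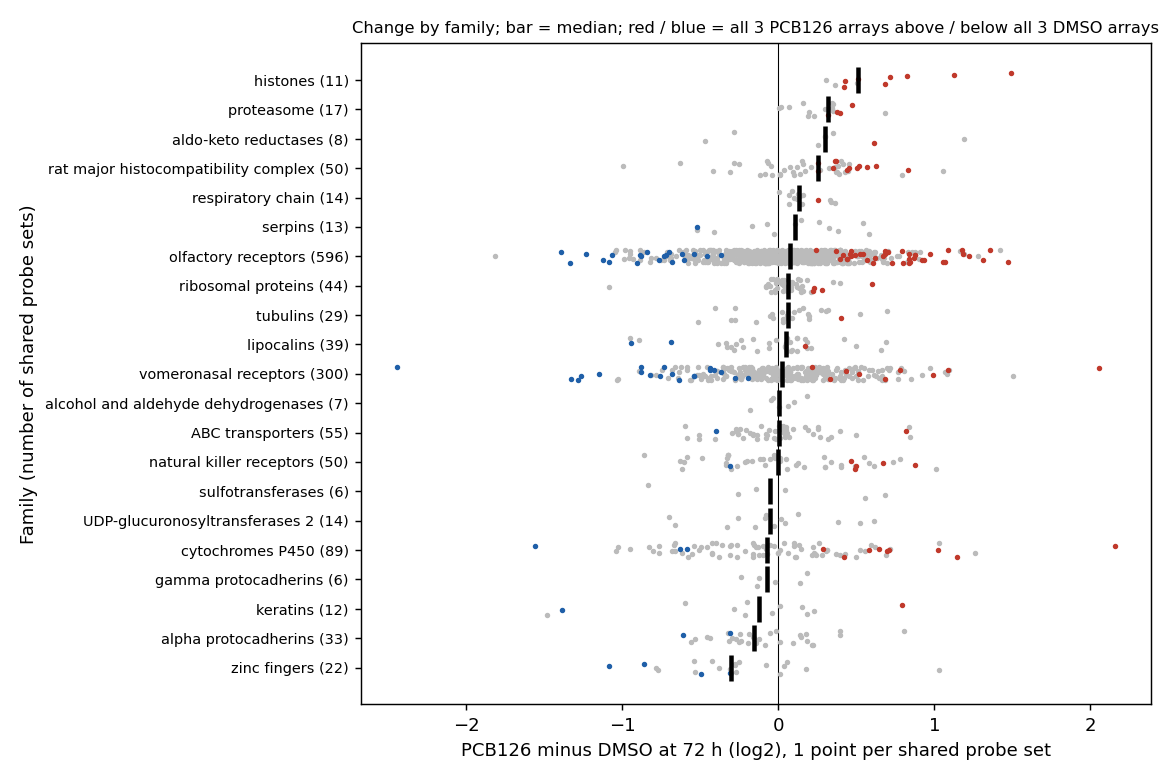
PCB126 minus DMSO at 72 h (log2, horizontal axis) for shared probe sets of each family with at least 5 of them (vertical axis, with their number); black bars are medians, and red or blue points have all 3 PCB126 arrays above or below all 3 DMSO arrays. Histones have the highest median, 0.513, with 8 of 11 rows wholly higher, and zinc fingers the lowest, -0.305, with 4 of 22 wholly lower.

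The largest sets of symbols were mostly flat. Mug1 and Mug2, murinoglobulins that trap proteases in rodent plasma, shared 133 probe sets, with 6 wholly higher and 3 wholly lower at 72 h. Cort and Kif1b shared 53, with 2 wholly higher and 0 wholly lower, and Atg2a and Ehd1 shared 48, with 1 and 6. Cd36 and RGD1565355 stood apart from these, with a median of -0.714 over 42 probe sets and 12 wholly lower. On own probe sets, both dim, Cd36 changed by -0.16 and RGD1565355 by 0.98 at 72 h (limma adjusted p = 0.792 and 0.101). Most of the shared rows were dim too, with 10 of the 42 above 4.03, the median of all probe sets. The brightest read 6.80, 6.41 and 7.09 in DMSO and 6.31, 5.53 and 6.32 with PCB126 at 72 h (-0.71, limma adjusted p = 0.572). Hmgb1, a chromatin protein, shared 41 rows with Hmg1l1, an older name of a pseudogene, of which 13 were wholly higher at 24 h and 5 at 72 h. Over the array 6.1% were wholly higher at 24 h, and 5.82% wholly higher and 5.79% wholly lower at 72 h.

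By the kind of pair, called rows at 72 h numbered 6 of 176 where all symbols were names of 1 gene, 7 of 1321 for neighbours and 5 of 1259 for genes apart on a chromosome. For genes on different chromosomes, overlapping genes and rows with an unmatched symbol the count was 0 of 428, 0 of 177 and 0 of 140. Over the array 0.298% were called. Few pairs made up these calls: 5 rows were of C4 and 1 of Krt16, all names of 1 gene. Among neighbours 5 were of Afap1l1 and Grpel2, 1 of C2 and Cfb and 1 of Cgn and Tuft1. Of genes apart, 4 were of Fcgr2b and Fcgr3 and 1 of Hps5 and Saa4. Different-chromosome rows had the highest median change, 0.118, with 68 of 428 wholly higher and 20 wholly lower, against 5.82% and 5.79% of the array. Symbols sharing a stem, such as C4-2 and C4b, covered 1906 rows with 10 calls, all lower. The other 1595 rows had 8 calls, of which 6 were higher. Signals differed between the kinds as well. Median levels ran from 2.97 for genes apart on a chromosome to 9.56 for genes on different chromosomes. With a shared stem the median level was 3.2, and without one it was 7.05. No test of the differences between kinds was made, and the part of signal in them was not tested.

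DMSO at 72 h was also compared with DMSO at 6 h. These arrays are the controls of the comparisons above, so the results are not independent of them. limma called 1 shared probe set, lower, 0.0286% against 0.0339% of all probe sets (0.0115% higher and 0.0224% lower). An unadjusted p under 0.05 was reached by 275 (7.85%), against 7.74% of all, and of the 900 partner genes 12 were called, against 4.14% of all genes. The called probe set belonged to Abca6 and Abca9, neighbouring transporters of the ABCA group. Probe set 6026719 read 6.85, 6.72 and 7.11 at 6 h, 6.03, 6.26 and 5.98 at 24 h and 5.38, 5.38 and 5.19 at 72 h in DMSO (-1.58 from 6 to 72 h, SE 0.24, limma adjusted p = 0.0261). The call was lost without any 1 of the 6 DMSO arrays compared (adjusted p = 0.0781 to 0.154). With PCB126 the 72 h arrays read 6.16, 6.16 and 6.08, wholly above DMSO but not called (0.82, adjusted p = 0.267). From 6 to 72 h in DMSO, Abca6 changed by 0.13 on 45 own probe sets and Abca9 by 0.23 on 1 (limma adjusted p = 0.71 and 0.835). Their group means were only 2.37 to 2.56 and 1.30 to 2.39, under the median of 4.03, so a fall could hardly show. The brightest of the pair's 38 shared rows changed by -0.34 (limma adjusted p = 0.757). Over all shared probe sets, 236 were wholly higher at 72 h than at 6 h in DMSO and 355 wholly lower, 6.74% and 10.1% against 7.12% and 7.97% of the array.

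A limma F-test compared the change with PCB126 over the 3 times, and it called 0 shared probe sets, against 2 of the whole array (0.000192%), while 169 had an unadjusted p under 0.05, against 5.19% of the array. The highest F among shared probe sets was that of the Fcgr row 5943498 (15.5, adjusted p = 0.605), with changes of -0.82, -2.67 and -3.04. Next came Pcdha9 and Pcdhac2 on probe set 6102506, which changed by 1.20 at 6 h, -0.57 at 24 h and -0.32 at 72 h (F 14.6, adjusted p = 0.656). The dim row 5718413 of Vom2r56 and Vom2r57 read 1.33, 1.43 and 1.01 in DMSO and 3.98, 4.05 and 4.48 with PCB126 at 6 h, and 4.57, 5.38 and 3.20 against 2.10, 0.75 and 2.97 at 72 h (F 13.9, adjusted p = 0.692). Its groups were apart in opposite directions at those times.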

How the data were processed

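The deposited values are log2 probe set signals. Per the submitters' processing notes, the authors ran RMA in Affymetrix Power Tools 1.12.0. The array's genome build was not given in the sources used here. Each of the 18 arrays was used as deposited, and 0 pairs were identical. limma 3.58.1 in R 4.3.3 was fitted over all 1044112 probe sets with 1 mean per group (12 residual df, prior df 4.12) and Benjamini-Hochberg adjustment, at a threshold of 0.05. Gene values are medians over probe sets with that single symbol, for 16988 genes (prior df 3.89). Precision is limited by 3 arrays per group.

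Named probe sets were the 8 largest called rises and falls per time with at most 2 per set of symbols, up to 2 per family, the 5 highest F and 4 per direction in the DMSO comparison. Families were taken from symbol prefixes. Members and lists were chosen with earlier results of these data known. The subtraction of gene values and the 50% rule for separated sets were chosen after seeing the data, as were the rows shown as brightest of a set and the counts without arrays that stand apart. Names and promoters came from RefSeq GRCr8, read with Biopython 1.88 under Python 3.11.15. The fit was tested on simulated data. Alternatives were the arrays in the fit, a block by replicate number, a filter on dim probe sets, the probe sets adjusted over, 2 scalings, an intensity trend, the summary over a gene's probe sets and leaving out arrays.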

Additional observations from a re-analysis of the deposited data

How the results depend on the processing

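Of the recomputed counts, 156 stayed within 1.5 times the reported count and 70 did not. Of the recomputed values of the 42 named probe sets, 517 kept their side of the threshold and 67 called ones lost it. No called value changed sign, while 9 named probe sets that were not called did so under some alternative, with changes of at most 0.25 in size. The cause of each change was not tested. With an intensity trend limma called 1 shared probe set at 6 h, 22 at 24 h, 65 at 72 h, 8 between DMSO times and 1 in the test over times. Adjusted over probe sets with a symbol, the counts were 1, 10, 36 and 4 for the first 4 of these. With the compared groups alone they were 0 at 24 h, 0 at 72 h and 0 between DMSO times, and 19 partner genes were called in place of 30; a mean over a gene's probe sets gave 48. Without PCB126 replicate 1 at 24 and 72 h, an alternative chosen after seeing the data, 2 and 7 shared probe sets were called at 24 and 72 h, and 0 and 11 differences from gene values passed. Those differences numbered 0 and 0 with the compared groups alone, and at 24 h 0 after quantile normalisation. Leaving out arrays in turn gave 0 to 0 calls at 6 h, 2 to 7 at 24 h, 4 to 19 at 72 h, 0 to 2 between DMSO times, 0 to 0 over times and 28 to 36 partner genes. Differences from gene values ran from 0 to 1 at 6 h, 0 to 2 at 24 h and 9 to 22 at 72 h; a group left with fewer arrays shared the spread of all groups.

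Replicates of DMSO and PCB126 share numbers, but deviations of same-numbered arrays correlated at only 0.0202 to 0.121, over 0.1 in 2 pairs, and 13 of 18 arrays correlated best with their own number in the other treatment. With a replicate block 16 shared probe sets were called at 72 h and 0 between DMSO times, 38 partner genes were called, and 0 and 14 differences from gene values passed at 24 and 72 h. Under the block 3 named calls were lost, those of C2 and Cfb, Hps5 and Saa4, and Abca6 and Abca9 (limma adjusted p = 0.0577, 0.0617 and 0.0503). Signals near the lower end of the range have no detection call, which limits what dim rows can show.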
